A study of Sus scrofa with 22 samples.

Results

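The 7 genes described here belong to epithelial calcium transport and were followed in the porcine endometrium on Day 12, 3 for entry (*TRPV6*, *TRPV5*, *TRPV3*), 1 for buffering in the cytosol (*S100G*) and 3 for export (*SLC24A4*, *ATP2B1*, *ATP2B4*). They were chosen by their names and known roles, without a threshold on their values, but with earlier results of these data known. All 7 were listed in at least 1 of the 3 deposited count tables, which together list 12401 genes. Luminal epithelium (LE) and stroma (S) list all 7, and glandular epithelium (GE) lists 6, without *TRPV3*.

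In epithelia that move calcium from one side to the other, calcium enters through channels of the apical membrane, is carried across the cytosol by small binding proteins, and leaves on the basolateral side through pumps and sodium exchangers. *TRPV6* and *TRPV5* are the calcium-selective channels of the TRPV family, known from intestine, kidney and placenta. *S100G* encodes calbindin-D9k, a buffer known from intestine and uterus. The uterine lumen of the pig is known for a rise in calcium at the time the conceptuses elongate and secrete estrogen.

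The data comprise 22 RNA-seq libraries from 8 gilts, crossbreeds of German Landrace and Piétrain whose ovulation was synchronised with PMSG and hCG while they were prepuberal. The pregnant gilts (n = 4) were inseminated with semen and had filamentous conceptuses in the uterine flush, and the control gilts (n = 4) were nonpregnant after insemination with sperm-free seminal fluid of the same boar. Cells were cut out of frozen sections by laser capture microdissection (LCM), so that each library holds RNA of at most about 50 cells. LE and GE have 1 library per gilt, and S has 1 from 3 control gilts (02, 04, 13) and 3 pregnant gilts (01, 05, 14). The values of the files are read counts per gene, and levels are given here as CPM (counts scaled to library size) after TMM normalization within each cell type, as mean ± SD. Within a sample of many cells, fewer cells of a type and less RNA per cell cannot be told apart.

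Library totals were between 893912 (pregnant LE, gilt 01) and 4020796 counts, so that 3 counts correspond to 0.746 to 3.36 CPM. The marker genes did not separate the 3 cell types cleanly. All 7 epithelial markers (keratins, *EPCAM*, *CDH1* and others) were listed in S, where their summed level was 2446 to 3047 CPM in the control and 1158 to 4043 CPM in the pregnant libraries, against 2686 to 4106 CPM in LE. All 7 fibroblast markers were in turn listed in LE, at a summed 11117 to 16500 CPM in control and 7194 to 18933 CPM in pregnant libraries. In S their sum was 4594 to 8281 CPM in the control libraries, each below every control LE library. Pregnant S had 60915 CPM of them in gilt 01, 8028 in gilt 05 and 11947 in gilt 14. *FOXA2*, a factor of uterine glands, was not listed in LE and reached 16.9 to 109 CPM in GE, but also 11.4 to 133 CPM in S. Pregnant LE of gilt 01 had 4969 CPM of smooth muscle markers against at most 631 CPM in the other LE libraries. Control GE of gilt 02 had 8061 CPM of these and the lowest sum of epithelial markers in GE, 734 CPM. The part of such admixture in the results was not tested; values without single gilts are given where they change a result.

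The comparison of pregnant with control gilts asks how each cell type responded to the conceptuses. Of the 7 members, 5 changed in LE (FDR below 0.01), with *TRPV6*, *TRPV5*, *TRPV3* and *S100G* higher and *SLC24A4* lower in pregnant gilts. Over all 11415 genes of LE, 10% passed this threshold (6.33% higher, 3.71% lower). *TRPV3* was at 0 in all control libraries and could enter the filtered tables through pregnant libraries only. Its difference was thus fixed by that filter. The other 4 were detected in both groups, but with only 4 to 18 counts of *TRPV5* in control and 3 to 128 of *SLC24A4* in pregnant LE. *TRPV5* and *SLC24A4* may thus also be listed in LE through 1 group only, and their calls are then not independent support. In GE 2 of 6 members changed (unadjusted p below 0.0021), *TRPV6* and *TRPV5*, both higher, where 0.694% of 11676 genes passed (0.574% higher). Control GE had only 0 to 7 counts of *TRPV5* and 4 to 49 of *TRPV6* per library. The CPM cutoff is not given in the sources used here. *TRPV5* may thus be listed in GE through pregnant libraries only, and its call there is not independent support. The summed epithelial markers of GE also lay apart by group, at 734 to 2190 CPM in control and 2263 to 3152 CPM in pregnant libraries, and their part in the rise was not tested. In S none of the 7 passed the same threshold in the quasi-likelihood test of edgeR, where 1.47% of 11532 genes did. At an unadjusted p below 0.05 there were 5 members in S (*TRPV6*, *TRPV5*, *TRPV3*, *SLC24A4*, *ATP2B4*), beside 12.5% of all genes, and 4 passed 0.0021 with the Wald test of DESeq2, beside 4.45%. Without gilt 01 the count was 5 in LE, 2 in GE and 1 in S (10.1, 0.462 and 1.5% of all genes). Without gilt 02 it was 5, 2 and 0 (5.99, 0.779 and 0.642%). The share of all genes whose groups do not overlap was not computed, so that lack of overlap is no added support here or below.

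**Figure D1:**
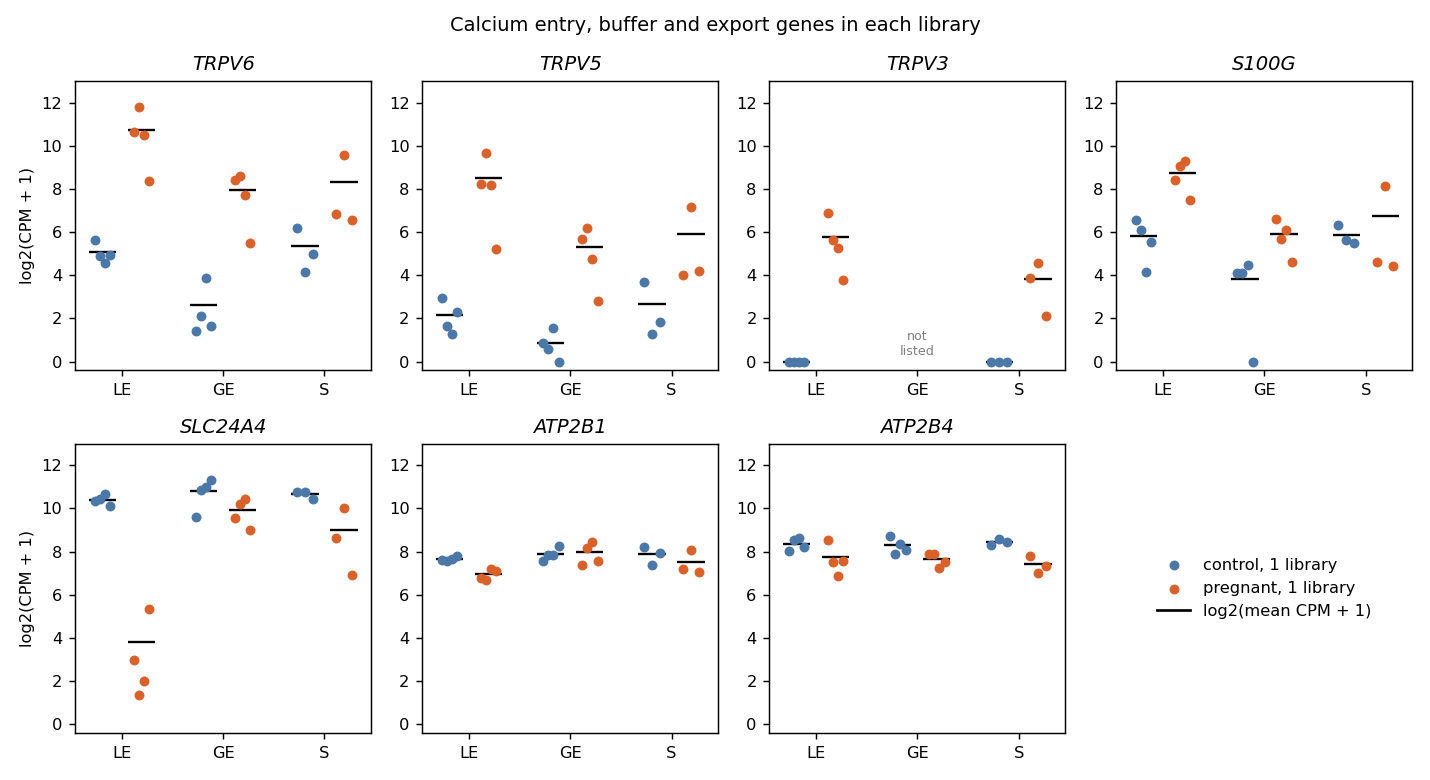
Level of each gene in every library, as log2(CPM + 1) on the vertical axis, by cell type and group; a point is 1 library and a line the group mean. Control and pregnant libraries lie apart for the 3 channels in each cell type that lists them. The share of all genes that lie apart was not computed. *SLC24A4* is lowest in the 4 pregnant LE libraries (1.56 to 40.0 CPM) and next lowest in pregnant S of gilt 14 (119 CPM).

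*TRPV6* (chr18:7332253-7348383 of Sscrofa11.1, plus strand) encodes the main apical calcium channel of absorbing epithelia. In control LE its level was 49.1, 28.3, 22.6 and 29.7 CPM in gilts 02, 04, 06 and 13. In pregnant LE it was 1599, 3505, 1464 and 333 CPM in gilts 01, 03, 05 and 14. The lowest pregnant library was thus far above the highest control library, and the pregnant libraries spread over a 10.5-fold range among themselves. The fold change was 53.3 (log2 FC 5.73 ± 0.66 SE, FDR 0.000355). Without gilt 03, the highest, the log2 FC was 5.13 (FDR 0.00043).

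In GE the channel was lower in both groups, with 1.65, 3.34, 13.6 and 2.16 CPM in control gilts 02, 04, 06 and 13. In pregnant GE it was 336, 388, 207 and 44.2 CPM in gilts 01, 03, 05 and 14. The groups did not overlap, and gilt 14 was again the lowest of the pregnant ones. The log2 FC was 5.49 ± 0.89 (passed on the unadjusted p, FDR 0.138), close to that of LE, from a control level of 4 to 49 counts per library. Without gilt 06, which held the 49 counts, it was 6.71 and passed.

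In S *TRPV6* was at 72.0, 16.7 and 31.1 CPM in control gilts 02, 04 and 13, a level like that of control LE. In pregnant S it was 114, 760 and 92.2 CPM in gilts 01, 05 and 14. The groups did not overlap, but the difference did not pass (log2 FC 3.02 ± 0.96, FDR 0.274). It rested on gilt 05 to a large extent, with a log2 FC of 1.38 without this gilt. The same library had the highest sum of epithelial markers in S, 4043 CPM against 1158 and 2162 CPM in gilts 01 and 14; the part of this in the result was not tested.

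Sequence upstream of the annotated start of *TRPV6*, chr18:7332003-7332252 (plus strand, RefSeq annotation of Sscrofa11.1), is shown because *TRPV6* rose in both epithelia. The capitals mark a match to the NF-kappa-B pattern (GGGA and CC with 4 bases between) at 170 to 161 bases before the start.

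TRPV6 upstream: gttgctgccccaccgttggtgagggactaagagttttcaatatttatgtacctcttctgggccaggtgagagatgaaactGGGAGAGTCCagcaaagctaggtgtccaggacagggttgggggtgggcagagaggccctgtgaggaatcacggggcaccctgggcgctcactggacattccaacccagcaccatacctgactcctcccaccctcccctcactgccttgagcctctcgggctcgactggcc

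This pattern was present, on either strand, in 26.4% of 19545 upstream regions of the same length. Among the 7 genes it was found before *TRPV6* and *ATP2B4*. Neither the estrogen response element (GGTCA and TGACC with 3 bases between, 0.0102% of regions) nor the receptor half-site AGAACA (10.3%) was found in the 250 bases before any of the 7 genes.

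*TRPV5* (chr18:7285186-7341965, plus strand), the calcium channel known mainly from kidney, starts upstream of *TRPV6* and overlaps it. In control LE there were 18, 8, 4 and 17 counts in gilts 02, 04, 06 and 13 (6.64, 2.14, 1.39 and 3.91 CPM). Pregnant LE had 302, 824, 290 and 36.5 CPM in gilts 01, 03, 05 and 14. Every pregnant LE library was above every control one, with a log2 FC of 6.69 ± 0.91 (FDR 0.000823), and of 5.89 without gilt 03.

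In GE the control libraries had 0 to 7 counts of *TRPV5*, and the pregnant ones 50.5, 73.1, 26.1 and 6.01 CPM in gilts 01, 03, 05 and 14. The log2 FC was 5.47 ± 0.97 (passed on the unadjusted p, FDR 0.146), and 6.55 without gilt 06. In S the control libraries were at 11.8, 1.46 and 2.56 CPM and the pregnant ones at 15.4, 144 and 17.2 CPM. These did not overlap, but the difference did not pass (log2 FC 3.51 ± 1.14, FDR 0.286), and was 1.65 without gilt 05 and 4.87 without gilt 02.

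Counts of the 2 neighbours are not fully independent. A noncoding transcript annotated to *TRPV5* ends with an exon of 86 bases at chr18:7341880-7341965 that is also an exon of *TRPV6*. This exon is shown as a stretch where a read cannot be assigned to 1 gene.

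Exon of both genes: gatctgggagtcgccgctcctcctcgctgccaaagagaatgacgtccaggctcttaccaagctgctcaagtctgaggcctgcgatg

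This stretch is 2.86% of the exonic bases of *TRPV6* and 2.11% of those of *TRPV5*. Identical sequence was not limited to it. Of the 50-base windows in the exons of *TRPV5*, 111 of 3203 (3.47%) were also in those of *TRPV6*, the shared exon included. *TRPV5* had 0 to 50% of the counts of *TRPV6* in the same library (median 13.9% over 22 libraries), with 11 to 23.5% in the pregnant libraries. A further 740 exonic bases of *TRPV6* (24.6%) overlap the antisense gene *EPHB6*, and the use of strand in counting is not given in the sources used here. *EPHB6* had 44.2 ± 20.7 CPM in control and 50.8 ± 7.71 CPM in pregnant LE (log2 FC 0.21 ± 0.29, FDR 0.65), without the rise of *TRPV6*. Per kb of exon, *TRPV6* reached 574 ± 438 and *TRPV5* 88.9 CPM per kb in pregnant LE.

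**Figure D2:**
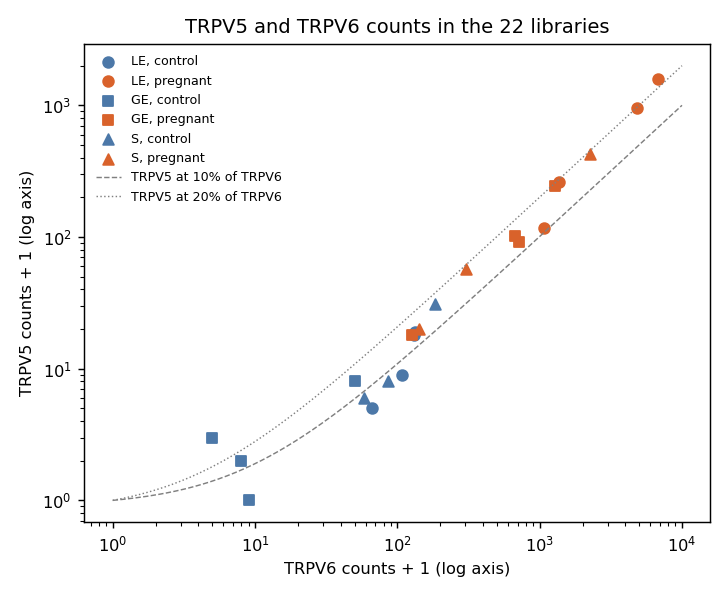
Read counts of *TRPV5* (vertical) against *TRPV6* (horizontal) plus 1, on log axes, 1 point per library, with lines where *TRPV5* is at 10% and 20% of *TRPV6*. Pregnant libraries lie between 11 and 23.5%, from 125 to 6750 counts of *TRPV6*.

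*TRPV3* (chr12:49638852-49671671, minus strand) encodes a warmth-sensitive cation channel that is permeable to calcium and best known from keratinocytes. It had 0 counts in each of the 4 control LE and 3 control S libraries. In pregnant LE there were 102, 93, 123 and 41 counts in gilts 01, 03, 05 and 14, or 119, 48.3, 37.2 and 12.8 CPM. The channel was thus detected in all pregnant LE libraries and in no control one, and was at least 59.7-fold higher when the control is set to 3 counts per library (0.911 CPM; FDR 0.00176, of a gene that the filter lets in only if it is high in 1 group). Pregnant S had 17, 68 and 11 counts in gilts 01, 05 and 14 (13.8, 22.8 and 3.37 CPM), at least 12.6-fold above 3 counts per control library. It missed the threshold on the unadjusted p in S by a small margin (FDR 0.139), and passed it without gilt 14 or with library size as the only scaling. For the joint pattern of the channels, the region before its start, chr12:49671672-49671921 (minus strand), is shown with a match to the AP-1 pattern TGANTCA in capitals, at 36 to 30 bases before the start.

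TRPV3 upstream: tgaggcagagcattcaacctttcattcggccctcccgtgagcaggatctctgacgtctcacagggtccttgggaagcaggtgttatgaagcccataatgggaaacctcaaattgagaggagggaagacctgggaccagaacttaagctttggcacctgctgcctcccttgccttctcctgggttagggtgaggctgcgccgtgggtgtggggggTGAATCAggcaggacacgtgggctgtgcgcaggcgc

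This AP-1 pattern was present in 5.26% of the regions, and among the 7 genes in *TRPV3* only.

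*S100G* (chrX:13107611-13114213, plus strand), the cytosolic buffer calbindin-D9k, was at 94.1, 67.3, 17.1 and 45.3 CPM in control LE of gilts 02, 04, 06 and 13. In pregnant LE it was 346, 536, 626 and 179 CPM in gilts 01, 03, 05 and 14. The groups did not overlap, and the buffer was 7.55-fold higher in pregnant LE (log2 FC 2.92 ± 0.52, FDR 0.00333). The call was lost without gilt 04, 05 or 13, with the FDR at most 0.0141.

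In GE *S100G* had 16.1, 16.2, 21.4 and 0 CPM in control gilts 02, 04, 06 and 13. In the pregnant gilts 01, 03, 05 and 14 it had 96.9, 49.8, 66.7 and 23.3 CPM. The groups did not overlap, but the difference did not pass (log2 FC 2.14 ± 0.90, FDR 0.59). In S the control libraries had 79.5, 49.4 and 44.3 CPM, and the pregnant ones 23.5, 279 and 20.2 CPM in gilts 01, 05 and 14. Of these, gilt 05 was above and the other 2 below all controls (log2 FC 0.91 ± 0.96, FDR 0.783). Without gilt 05 the log2 FC turned to -1.41 (FDR 0.158), which did not pass, and this library was also the one with the most epithelial marker RNA in pregnant S.

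*S100G* lies inside *CTPS2*, on the other strand, with 0 shared exonic bases. The region before its start, chrX:13107361-13107610 (plus strand), is shown as that of the buffer, with a TATAAA box in capitals at 34 to 29 bases before the start.

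S100G upstream: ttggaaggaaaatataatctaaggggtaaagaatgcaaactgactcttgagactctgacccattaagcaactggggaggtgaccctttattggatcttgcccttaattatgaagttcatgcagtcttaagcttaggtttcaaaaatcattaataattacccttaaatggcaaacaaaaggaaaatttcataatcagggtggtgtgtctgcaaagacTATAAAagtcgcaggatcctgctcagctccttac

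TATAAA was present in 9.77% of the regions of this length, and among the 7 genes in *S100G* only. Its GC content was 38.4%, against 57.6 to 71.6% in the other 6.

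*SLC24A4* (chr7:113836207-114014952, plus strand) encodes a potassium-dependent sodium-calcium exchanger, which extrudes calcium. In control LE it was at 1285, 1378, 1655 and 1094 CPM in gilts 02, 04, 06 and 13. In pregnant LE there were 6, 3, 10 and 128 counts in gilts 01, 03, 05 and 14, or 7.0, 1.56, 3.02 and 40.0 CPM. The loss was thus nearly complete in 3 of the gilts and less so in gilt 14, where the level was still below every control library. The exchanger was 97.2-fold lower (log2 FC -6.60 ± 0.84, FDR 0.000585), and the log2 FC was -8.68 without gilt 14.

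In GE the same gene stayed abundant, with 786, 1871, 2021 and 2577 CPM in control gilts 02, 04, 06 and 13. Pregnant GE had 764, 1182, 1373 and 516 CPM in gilts 01, 03, 05 and 14. These groups overlapped and did not pass the test (log2 FC -0.92 ± 0.42, FDR 0.639). In S the level was 1743, 1739 and 1383 CPM in the control and 390, 1024 and 119 CPM in pregnant gilts 01, 05 and 14. The groups of S did not overlap, without passing the threshold (log2 FC -1.67 ± 0.70, FDR 0.396), and the log2 FC was -2.67 without gilt 05.

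*ATP2B1* (chr5:92935688-93061406, plus strand) encodes the plasma membrane calcium pump PMCA1, found in most tissues. In LE it had 196, 190, 198 and 224 CPM in control gilts 02, 04, 06 and 13, and 107, 103, 144 and 136 CPM in pregnant gilts 01, 03, 05 and 14. The 2 groups did not overlap and were tight, but the difference narrowly missed the FDR of 0.01 (log2 FC -0.71 ± 0.16, FDR 0.0117). It passed with library size as the only scaling, with at least 10 counts required in every library, and with the likelihood ratio test or DESeq2. In GE the pump was at 239 ± 49.7 CPM in control and 248 ± 84.5 CPM in pregnant gilts (log2 FC 0.05 ± 0.27, FDR 0.971). In S the means were 234 ± 65.1 and 180 ± 74.3 CPM (log2 FC -0.37 ± 0.36, FDR 0.757). Of its exonic bases, 6.03% overlap an antisense gene that is in none of the 3 tables.

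*ATP2B4* (chr9:64336354-64445669, plus strand) encodes the pump PMCA4. Its level was 329 ± 62.2 CPM in control and 214 ± 109 CPM in pregnant LE, where gilt 01 (371 CPM) lay within the control range of 261 to 394 CPM. The difference did not pass in LE (log2 FC -0.63 ± 0.32, FDR 0.18, and -1.02 with an FDR of 0.0114 without gilt 01, the library with the most smooth muscle markers in LE) or in GE, where the means were 314 ± 82.0 and 201 ± 42.7 CPM (log2 FC -0.64 ± 0.24, FDR 0.542). In S the values were 318, 384 and 350 CPM in control gilts 02, 04 and 13, and 223, 128 and 159 CPM in pregnant gilts 01, 05 and 14. The groups of S were apart by 2.07-fold (log2 FC -1.05 ± 0.28, FDR 0.213), which passed 0.0021 without gilt 01 and with DESeq2, but not in the fit of all 6 libraries.

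**Figure D3:**
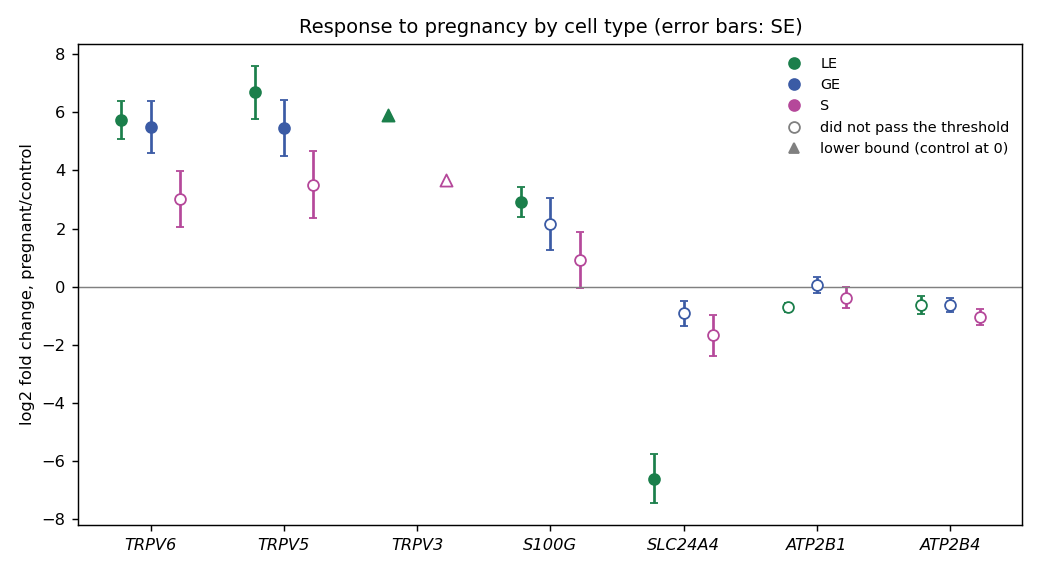
Log2 fold change (pregnant/control) with SE of each gene in LE, GE and S; open symbols did not pass the threshold, and triangles are lower bounds where the control was at 0. The channels and *S100G* lie above 0 and *SLC24A4* in LE at -6.60, whereas the pumps lie between -1.05 and 0.05.

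Whether the response differed between cell types was tested in a joint fit of the 22 libraries and the 10643 genes listed in all 3 tables, which leaves out *TRPV3*. No gene passed an FDR of 0.01 for LE against GE (0% of genes, 1329 at an unadjusted p below 0.05) or LE against S (0%, 1149 genes). A fixed block for the gilt gave 42 genes (0.395%) and 2 genes (0.0188%) with edgeR, and a random one 41 (0.385%) and 0 with limma. *SLC24A4* had the largest difference of the 6 members, a log2 difference of -5.71 ± 1.02 between the responses in LE and GE, with an FDR of 0.0266. It had an FDR of 0.0201 under the fixed block, passed under the random block (-6.66 ± 1.05, FDR 0.00382), and passed without gilt 14 (-7.95). Against S the difference was -4.94 ± 1.09 (FDR 0.196), and -7.45 without gilt 14 (FDR 0.000127).

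The response of *TRPV6* differed by 0.26 ± 1.19 (log2) between LE and GE (FDR 0.96), a difference smaller than its own error, and its sign turned under the fixed block (-0.091) and without gilt 06 (-1.11). Against S it was 2.73 ± 1.2 larger in LE (FDR 0.434). *TRPV5* gave 1.23 ± 1.78 against GE (FDR 0.85) and 3.17 ± 1.47 against S (FDR 0.45). For *S100G* these were 0.78 ± 1.17 (FDR 0.856) and 2.03 ± 1.24 (FDR 0.576). Without gilt 05 the differences of LE from S grew to 4.48, 5.15 and 4.11 for *TRPV6*, *TRPV5* and *S100G*, none with an FDR below 0.09. *ATP2B1* fell short as well, with -0.76 ± 0.37 against GE (FDR 0.402) and -0.31 ± 0.40 against S (FDR 0.823). *ATP2B4* gave 0.02 ± 0.40 and 0.48 ± 0.43, with FDRs of 0.993 and 0.73.

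The order of levels over cell types was compared in the same joint fit. In pregnant gilts *TRPV6* was highest in LE, with means of 1725 ± 1316 CPM in LE, 322 ± 379 in S and 244 ± 153 in GE. The order of S and GE turned without gilt 05, where the S mean was 103 CPM. It was lower in GE than in LE in all 4 gilts, at 11 to 21% of the LE level of the same gilt. Without a block this did not pass (log2 FC -2.83 ± 0.82, FDR 0.0185), but it did under the fixed block (-2.75, FDR 0.00288). S was below LE in all 3 gilts, at 7.13% (gilt 01), 51.9% (gilt 05) and 27.7% (gilt 14), which did not pass (log2 FC -2.46 ± 0.90, FDR 0.0874). GE and S were not tested against each other.

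*TRPV5* was also highest in LE, with 363 ± 331 CPM, against 58.7 ± 73.5 in S (16.3 without gilt 05, below GE) and 38.9 ± 29.1 in GE. GE against LE gave -3.23 ± 0.90 without (FDR 0.0157) and -3.02 with the fixed block (FDR 0.00171), and S against LE gave -2.65 ± 0.98 (FDR 0.0926). *S100G* had 422 ± 200 CPM in LE, 108 ± 148 in S (21.8 without gilt 05, below GE) and 59.2 ± 30.8 in GE, where GE was at 9.29 to 28.0% of LE of the same gilt. This passed with the random block (-2.90, FDR 0.00346; 16.8% of genes) but not with the fixed block (FDR 0.012) or without (-2.85 ± 0.86, FDR 0.0234). *TRPV3* in pregnant S was lower than in LE by a log2 FC of -2.04 ± 0.82 (FDR 0.149) in a fit of the 14 LE and S libraries, where 0.569% of 10890 genes passed.

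*SLC24A4* had the opposite order in pregnant gilts, with 959 ± 389 CPM in GE, 511 ± 465 in S and 12.9 ± 18.2 in LE. It was 70.3-fold higher in GE than in LE (log2 FC 6.14 ± 0.84, FDR 0.000228) and 36.4-fold higher in S than in LE (5.19 ± 0.82, FDR 0.00195). Among all genes 9.56% differed between GE and LE and 0.893% between S and LE at this threshold. The S difference lost its call without gilt 01 or 03 (FDR 0.0122 and 0.0104) and was 3.79 without gilt 05, and GE against LE was 8.38 without gilt 14. *ATP2B1* was 2.01-fold higher in GE than in LE, higher in all 4 gilts, which passed with the fixed block (0.95, FDR 0.00432; 15.8% of genes) but not without (1.01 ± 0.26, FDR 0.0107). *ATP2B4* differed little, by -0.10 ± 0.28 in GE and -0.39 ± 0.31 in S (FDR 0.84 and 0.442).

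In control gilts none of the 6 members passed between cell types, where 0.15% of all genes passed for GE against LE and 0% for S against LE. *SLC24A4* was at 1353 ± 233 CPM in LE, 1814 ± 749 in GE and 1621 ± 207 in S, so that its contrast between LE and the other cell types was seen in the pregnant gilts. *TRPV6* in GE was at 3.36 to 60.1% of the LE level of the same gilt (log2 FC -2.58 ± 0.88, FDR 0.0939; -3.89 without gilt 06). *S100G* was at 56.0 ± 32.7 CPM in LE, 13.4 ± 9.28 in GE and 57.7 ± 19.0 in S. For S against LE of control gilts, the log2 FC of the 6 members lay between 0.03 and 0.53, the latter for *TRPV5* with an SE of 1.13. Of all 10643 genes only 401 (3.77%) had an unadjusted p below 0.05 with edgeR. Small differences between S and LE of control gilts are thus not particular to the members.

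**Figure D4:**
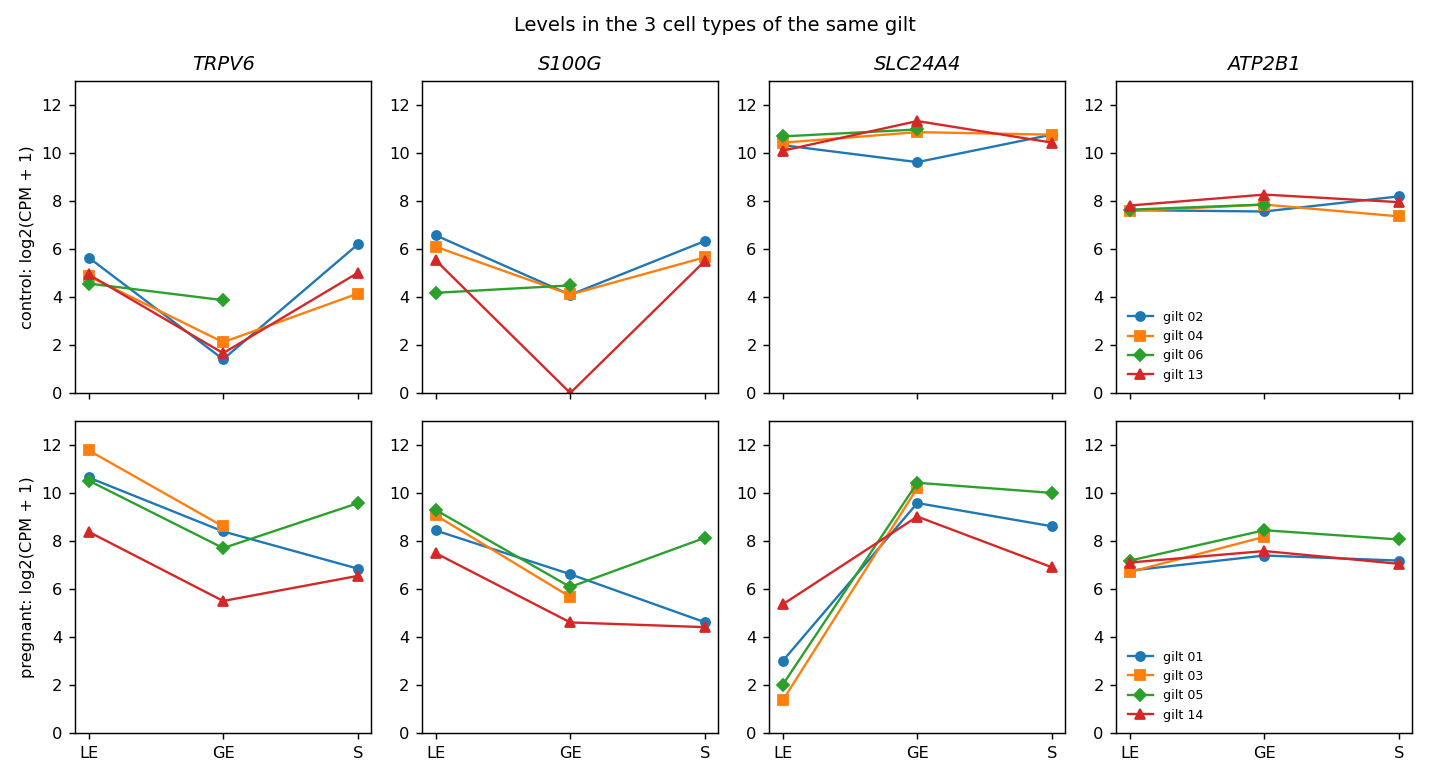
Level, as log2(CPM + 1), of 4 genes in LE, GE and S, with lines joining the libraries of 1 gilt; control gilts above, pregnant gilts below. In the pregnant gilts *TRPV6* is lower in GE than in LE in 4 of 4 and *SLC24A4* higher in 4 of 4.

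A wider list, which leaves out the members, was read from the same fits. It holds 98 symbols, of calcium genes and of hormones, receptors and channel partners. In LE 66 of them were listed and 10 changed (15.2%, beside 10% of all genes), 7 higher and 3 lower (beside 6.33% and 3.71% of all genes). The median log2 FC of the 66 was 0.13, against 0.01 over all genes. In GE 0 of 65 and in S 0 of 60 passed with edgeR (9 in each at an unadjusted p below 0.05, beside 8.09% and 12.5% of all genes), with medians of 0.10 and 0.31 beside -0.02 and 0.08.

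Among entry channels, 2 of 22 rose and 1 fell in LE (13.6%, beside 10% of all genes). *TRPM6*, a channel for magnesium and calcium, rose from 190 ± 19.4 to 672 ± 214 CPM (log2 FC 1.83 ± 0.24, FDR 0.00069). *ORAI1*, the pore of store-operated entry, rose from 10.8 ± 5.38 to 39.6 ± 14.1 CPM (1.87 ± 0.37, FDR 0.00591). *CACNA1D*, a voltage-gated L-type channel, fell from 71.5 ± 13.4 to 19.1 ± 2.98 CPM (-1.91 ± 0.21, FDR 0.000266). All 3 had pregnant and control LE libraries that did not overlap, as did every gene of the list that passed in LE. The share of all genes without overlap was not computed, so that this is no added support.

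Of the 6 listed buffers and sensors 3 rose in LE, beside 6.33% of all genes. Among them were *CALM2*, which encodes a calcium sensor (281 ± 33.5 to 634 ± 165 CPM, FDR 0.00446), and *SRI*, which encodes the calcium sensor sorcin (139 ± 14.4 to 413 ± 117 CPM, FDR 0.00103). Of the 2 listed plasma membrane exporters other than the members 1 fell, beside 3.71% of all genes. This was the sodium-calcium exchanger *SLC8A1* (149 ± 45.6 to 49.0 ± 21.5 CPM, log2 FC -1.63 ± 0.35, FDR 0.00922). None of the 15 listed genes of the endoplasmic reticulum and Golgi passed (6 at an unadjusted p below 0.05 with edgeR, beside 35.6% of all genes). Of 9 mitochondrial genes *VDAC1*, the outer membrane channel, rose from 169 ± 21.0 to 371 ± 76.2 CPM (FDR 0.00228).

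Of 12 listed hormones, receptors and channel partners 2 changed in LE (16.7%, beside 10% of all genes). *PTHLH*, the parathyroid hormone-related protein, rose from 10 to 231 counts in all (0.837 ± 1.18 to 28.9 ± 16.0 CPM, log2 FC 5.14 ± 0.84, FDR 0.00208). Control LE had only 0 to 2.58 CPM of *PTHLH*, which may thus be listed through pregnant libraries only. Its call, also counted among the 10 of the wider list, is then not independent support. *ESR1*, estrogen receptor alpha, fell from 432 ± 34 to 150 ± 60.5 CPM (-1.51 ± 0.26, FDR 0.00302). In GE *ESR1* had a log2 FC of -0.57 ± 0.34 and in S of -0.19 ± 0.55, neither of which passed.

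**Figure D5:**
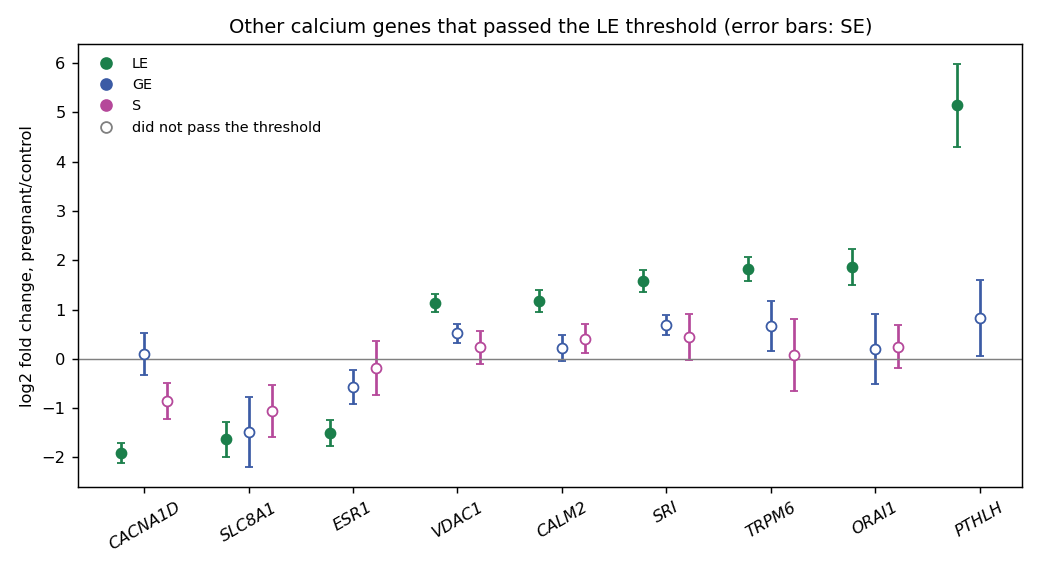
Log2 fold change (pregnant/control) with SE in LE, GE and S, for 9 of the 10 genes of the wider list that passed in LE. Open symbols did not pass the threshold. None of the 9 passed in GE, and none passed in S, which does not list *PTHLH*.

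The genes most like each member over all libraries that list it are given as a description of r across libraries, which share cell type, pregnancy and gilt. *TRPV6* was closest to *TRPV5* (Pearson r 0.978 over 22 libraries), *AKR1B1* (0.963) and *ANXA8* (0.94). For *TRPV5* the closest genes included *TRPV6* and *AKR1B1* (0.952). *TRPV3*, over the 14 LE and S libraries, was closest to *S100A9* (0.992), *S100A8* (0.988) and *S100A12* (0.986), and *S100G* over 22 libraries to *S100A2* (0.946), *ARSE* (0.933) and *MUC4* (0.933). *SLC24A4* was closest to *EFNA5* (0.955), *HECTD4* (0.946) and *GATA2* (0.931). *ATP2B1* was closest to *TNKS* (0.928), *PRPF4* (0.89) and *SC5D* (0.887), and *ATP2B4* to *MAP1B* (0.86), *AKT2* (0.854) and *NDC1* (0.848). Among the members, *S100G* followed *TRPV6* with an r of 0.835 and *SLC24A4* ran against it with -0.731.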

How the data were processed

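RNA of LE, GE and S of 8 gilts was sequenced by the authors as single reads (Ovation SoLo). As given in the methods, they clipped adapters, aligned reads to Sscrofa 11.1 (Hisat2), dropped PCR duplicates using random bases of the adapter and filtered genes by CPM. The deposited values are unnormalized read counts per NCBI gene, 1 table per cell type; the counting tool and its strand setting are not given in the sources used here. IDs of all 12401 genes matched the NCBI annotation, which gave symbols, coordinates and the 250 bases before each start.

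Each cell type was fitted over all its genes in edgeR 4.0.16 (R 4.3.3) with TMM and the quasi-likelihood test. Genes were called at the study's values, an FDR below 0.01 in LE and an unadjusted p below 0.0021 in GE and S. In the study this p matched the FDR in LE; here that FDR falls at an unadjusted p of 0.001, so that GE and S have the looser threshold. At 0.001 (added after seeing the data) 2 members were called in GE and 0 in S, beside 0.428% and 0.858% of all genes. Contrasts between cell types came from 1 joint fit of 22 libraries (FDR below 0.01). SE is the log2 FC divided by the root of F. A gene with all controls at 0 was set against 3 counts per library. Intervals were not computed, and limits at 0 cover counting error only.

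The labels number libraries by gilt. Deviations from group means correlated within gilts with a median of 0.257 (LE and GE), 0.314 (LE and S) and 0.468 (GE and S), against -0.0754, -0.138 and -0.188 between gilts, so that gilt was a block in further joint fits (edgeR; voom with limma 3.58.1). Pregnancy differs between gilts, so no block was possible within a cell type. Other alternatives were RLE or library size, filterByExpr or at least 10 counts, likelihood ratio and DESeq2 1.42.0 tests, an FDR of 0.05, 6 gilts only, and leaving out each gilt; a fit of LE and S libraries was added after seeing the data. Scripts were tested on simulated counts.

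Members and lists were chosen with earlier results of these data known. Named genes are all members and the called genes of the wider list of 98 symbols. Of the called genes, at most 12 of smallest p were taken in LE and 6 in GE and S. Named as well are, per member, the 3 genes of highest r of log2 CPM (prior count 2, mean CPM of at least 10). Some genes that these rules name are not reported here.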

Additional observations from a re-analysis of the deposited data

Results flagged for a closer look

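Of 25 groups of 4 libraries, 1 library stood far from the other 3 in 2 (Dixon's test at 95%, by which chance marks about 1 group in 20). *TRPV6* in control GE was at 13.6 CPM in gilt 06, with the next library at 3.34 CPM. *SLC24A4* in pregnant LE was at 40.0 CPM in gilt 14, with the next at 7.0 CPM; this gilt also had the lowest *TRPV6* (333 CPM) of pregnant LE. The response of *SLC24A4* differed between LE and GE by a log2 FC of -6.66 ± 1.05 (FDR 0.00382) under a random block for the gilt in limma, and by -5.71 ± 1.02 (FDR 0.0266) without a block in edgeR.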

How the results depend on the processing

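In LE 5 members passed in the fit of all libraries (10% of all genes), and 4 to 5 without 1 gilt (5.15 to 14.4%). The count was 3 with at least 10 counts in every library (10.1%, where 4 of the 7 were left to test). It was also 3 with the 6 gilts that have an S library (3.81%). In GE the count of 2 (0.694% of all genes) fell to 0 with at least 10 counts (0.487%), which removes *TRPV6* and *TRPV5* (3 left to test). It also fell to 0 at an FDR below 0.05 (0.0171%), and was 2 without any 1 gilt (0.36 to 0.856%). In S the count of 0 rose to 1 with library size alone, 3 with the likelihood ratio test and 4 with DESeq2 (1.72, 4.01 and 4.45% of all genes, from 1.47%). Without 1 gilt it was 0 to 1 (1 without gilt 01 or 14), beside 0.564 to 1.92% of all genes. For LE against GE 0 rose to 1, *SLC24A4*, with the random block, DESeq2, an FDR below 0.05 and without gilt 14 (0 to 1). Of all genes 0.385, 1.04, 0.404 and 0.432% passed there. For LE against S 0 rose to 1 with DESeq2 and without gilt 14 (0 to 1), beside 0.197 and 0.0094% of all genes. For GE against LE in pregnant gilts 1 member passed without a block, 4 with the fixed and 5 with the random block. The count was 2 with RLE or library size and 5 with DESeq2 or an FDR below 0.05. Of all genes 9.56% passed without and 15.8 and 16.8% with the blocks, and 9.94, 9.47, 16.3 and 21.3% for the others. Without 1 gilt the count was 1 to 2 (2 without gilt 14), beside 1.42 to 8.59% of all genes. For S against LE in pregnant gilts 1 (0.893% of all genes) fell to 0 with at least 10 counts (0.414%), which removes *SLC24A4* (2 members left to test). Without 1 gilt the count was 0 to 1, beside 0.132 to 2.22% of all genes. The block changed no other call of a member, and the cause of these changes was not tested beyond the fewer genes or gilts left.

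Some differences changed sign, none of them called, and not all of these lay near 0. *S100G* in S turned from 0.91 to -1.41 without gilt 05, and *TRPV5* in LE against GE from 1.23 to -0.13 without gilt 06. *TRPV6* in LE against GE gave -0.091 with the fixed and -0.12 with the random block, *S100G* -0.56 with the random block, and *ATP2B4* -0.060 and -0.11 with the blocks, -0.11 with library size and -0.047 with at least 10 counts. *ATP2B4* in GE against LE, pregnant, gave 0.025 with the random block, and *ATP2B1* in GE, pregnant against control, -0.059 with 6 gilts. Without 1 gilt the ranges were -0.16 to 0.20 (*ATP2B1*, pregnant against control in GE), -1.41 to 1.41 (*S100G*, the same in S), -1.11 to 0.81, -0.13 to 1.78 and -0.34 to 0.19 (*TRPV6*, *TRPV5* and *ATP2B4*, response in LE against GE), -0.59 to 0.0097 (*ATP2B1*, LE against S), -0.33 to 0.12 and -0.21 to 0.28 (*ATP2B4*, GE against LE, control and pregnant), and -0.18 to 0.59, -0.37 to 0.92 and -0.27 to 0.23 (*TRPV6*, *TRPV5* and *S100G*, S against LE, control). At 893912 to 4020796 counts per library, 3 counts stand for up to 3.36 CPM, so that *TRPV5*, *TRPV3* and *SLC24A4* at their low levels are imprecise.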
